A study of Mus musculus with 8 samples.

Results

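The genes described here are 34 genes of blood-cell signalling, adhesion and actin regulation, of 18193 genes that the arrays name in E12.5 mouse brain. They were drawn from gene families of leukocyte function, and some of them were picked because they read higher in the Cre+ arrays of these same data. Their difference between genotypes is therefore given as a description and is used as no evidence. Each gene is read by the probe set annotated to it that had the highest mean over the 8 arrays (a probe set is a group of short probes for 1 transcript). By this rule 32 of the 34 were measured. No probe set is annotated to *Lyn*, a Src-family kinase of blood cells, and both probe sets for *Gmfg*, an actin-branch regulator, also name a pseudogene, so neither gene has a value here.

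Brain RNA came from 4 arrays labelled knockout, of genotype *Nestin Cre+, Rest GTi/GTi*, and 4 arrays of *Rest GTi/GTi* littermate controls, all from E12.5 embryos of strain C57/BL6. In both genotypes each *Rest* allele carries a gene trap cassette that was turned round by Flpe recombinase so that *Rest* is spliced normally. In Cre+ embryos the *Nestin Cre* transgene turns the cassette back in neural progenitors and their progeny, and no control carries Cre, so the loss of REST and the presence of Cre cannot be told apart. The Nestin promoter drives Cre in the neural lineage, whereas blood cells and microglia arise outside it. Whether an array holds 1 embryo or several is not stated, so p-values measure only the spread between these arrays.

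Leukocytes sense their surroundings through surface receptors that carry, or pair with, a tyrosine motif known as an ITAM. Kinases of the *Src* and *Syk* families act on this motif, adaptors gather phospholipase C gamma, Vav and PI3-kinase around it, and phosphatases such as SHP-1 and SHIP-1 turn the signal down. The signal reaches Rac, which through the WAVE complex and Arp2/3 remodels actin for migration and phagocytosis. Neural cells often use related but separate family members for the same steps. In embryonic brain many of the hematopoietic forms, though not all, are known mainly from microglia and macrophages, which enter the brain from the yolk sac.

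*Rest* itself, on its brightest probe set, read 163.1, 216.7, 84.4 and 133.7 on the 4 Cre+ arrays in order of replicate number, against 170.1, 271.8, 211.1 and 198.3 on the controls (quantile-normalized intensity, log2 fold change -0.51, standard error 0.25, adjusted p = 0.758 by limma). The genotypes overlapped on that probe set, and where its probes lie relative to the cassette is not known here. *Xist* and *Eif2s3y* gave the signal of females on control replicates 2 and 3 and of males on the other 6 arrays. Cre+ replicates 1 and 2 stood apart by mesenchymal genes: the 12 markers of mesenchyme and meninges summed to 10707 and 15212 on them, against 1139 and 978 on Cre+ replicates 3 and 4 and 919 to 1804 on the controls. Cre+ replicates 3 and 4 were high in 6 hindbrain Hox genes, which summed to 1612 and 1001 on them, against 39.2 and 477 on Cre+ replicates 1 and 2 and 40.5 to 598 on the controls. Over all genes 39 were called higher (adjusted p from limma under 0.05, which is 0.214% of 18193) and 2 lower (0.0110%).

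Promoter windows of 5 members are shown because their genes carry the values that follow and because PU.1 (*Spi1*), an ETS-family factor of myeloid cells, is known for binding sites built on GAGGAA. Each window is the 250 bases before the gene's start as RefSeq gives it on GRCm38.p6, read 5′ to 3′ on the gene's strand, with every GAGGAA or its reverse complement TTCCTC in capitals. *Cd53* (chr3:106790150-106790399, minus strand) and *Aif1* (chr17:35176053-35176302, minus strand) had every Cre+ array above every control, as did *Rab32* (chr10:10558208-10558457, minus strand). *Vav1* (chr17:57278850-57279099, plus strand) overlapped between genotypes, whereas *Ly86* (chr13:37345095-37345344, plus strand) was separated and holds no such match.
Cd53: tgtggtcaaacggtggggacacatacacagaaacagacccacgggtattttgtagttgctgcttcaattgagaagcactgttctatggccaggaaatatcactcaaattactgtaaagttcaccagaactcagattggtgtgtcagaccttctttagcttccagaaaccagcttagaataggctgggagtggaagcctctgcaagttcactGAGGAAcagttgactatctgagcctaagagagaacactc
Aif1: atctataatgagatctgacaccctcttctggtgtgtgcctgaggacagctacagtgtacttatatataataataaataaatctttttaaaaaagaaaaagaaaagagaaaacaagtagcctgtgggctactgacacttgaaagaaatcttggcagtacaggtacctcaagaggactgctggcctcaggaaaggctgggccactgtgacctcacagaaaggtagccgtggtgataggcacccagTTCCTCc
Rab32: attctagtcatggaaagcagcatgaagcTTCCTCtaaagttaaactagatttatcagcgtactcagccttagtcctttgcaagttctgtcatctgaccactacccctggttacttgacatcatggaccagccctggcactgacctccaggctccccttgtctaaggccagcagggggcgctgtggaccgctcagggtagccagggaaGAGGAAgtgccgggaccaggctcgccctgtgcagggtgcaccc
Vav1: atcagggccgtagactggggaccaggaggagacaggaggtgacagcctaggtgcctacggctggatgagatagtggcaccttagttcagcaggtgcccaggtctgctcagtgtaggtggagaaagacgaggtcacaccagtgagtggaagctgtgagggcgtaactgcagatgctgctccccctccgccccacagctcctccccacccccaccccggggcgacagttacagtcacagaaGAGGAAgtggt
Ly86: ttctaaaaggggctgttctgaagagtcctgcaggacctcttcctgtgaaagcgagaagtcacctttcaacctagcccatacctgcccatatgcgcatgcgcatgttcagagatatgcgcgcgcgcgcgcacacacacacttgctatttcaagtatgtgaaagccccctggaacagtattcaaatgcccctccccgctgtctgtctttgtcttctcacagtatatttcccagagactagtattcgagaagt

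The match in *Cd53* began 39 bases before the start, that in *Aif1* 7 bases, that in *Vav1* 11 bases and those in *Rab32* 222 and 43 bases. Windows were found by symbol for 29 of the 34 members, 38 windows in all, and not for *Lyn*, *Itgb2*, *Rac2*, *Nckap1l* and *Lat2*. GAGGAA on either strand occurred in 16 of the 38 windows (42.1%), against 7639 of 32851 windows of all genes (23.3%). The longer form GAGGAAGT, which contains it, occurred in 4 of the 38 (*Inpp5d*, *Pik3cg*, *Rab32* and *Vav1*) and in 2.44% of all windows. Members that separated the genotypes had GAGGAA in 7 of 18 windows, and members that overlapped had it in 8 of 18. A match is a run of letters and does not show that a factor binds.

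Of the 32 measured members, 15 had every Cre+ array above every control and 0 had the reverse. Over all genes 453 of 18193 were separated upward (2.49%) and 392 downward (2.15%). Because members were picked in part from this contrast, nothing is read from the difference between these shares. Members past the limit of limma over all probe sets were 5 (*Cd53*, *Ly86*, *Lcp2*, *Aif1* and *Wdfy4*), against the 0.214% of all genes. The same choice of members bears on these calls. The calls and their fate under other settings are therefore description only. With any 1 array left out other than control replicate 1, 3 of the 5 members passed (*Aif1*, *Cd53* and *Ly86*). With no scaling between arrays, by the methods' t-test with unequal variances or with Cre+ replicates 3 and 4 alone, 0 members passed. Over all genes 2 were called with no scaling and 0 in each of the other settings just named, so these counts of 0 are not particular to the members. All Cre+ arrays have the male signal, and against the male controls alone, or with *Eif2s3y* as a covariate, 2 members passed (*Cd53* and *Ly86*). Over all genes 7 were called against the male controls and 14 with the covariate. In RNA of brain tissue, more cells of a type and more RNA per cell cannot be told apart. The median log2 fold change (Cre+ minus control, on intensity plus 16) was 0.47 over the members and -0.0012 over all genes. As the mean over members, Cre+ replicates 1 to 4 lay 0.54, 0.50, 0.49 and 0.51 log2 units above the control mean, and the controls lay between -0.03 and 0.03. Cre+ replicates 1 and 2, which stood apart by mesenchymal genes, did not stand apart in the members.

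**Figure D1:**
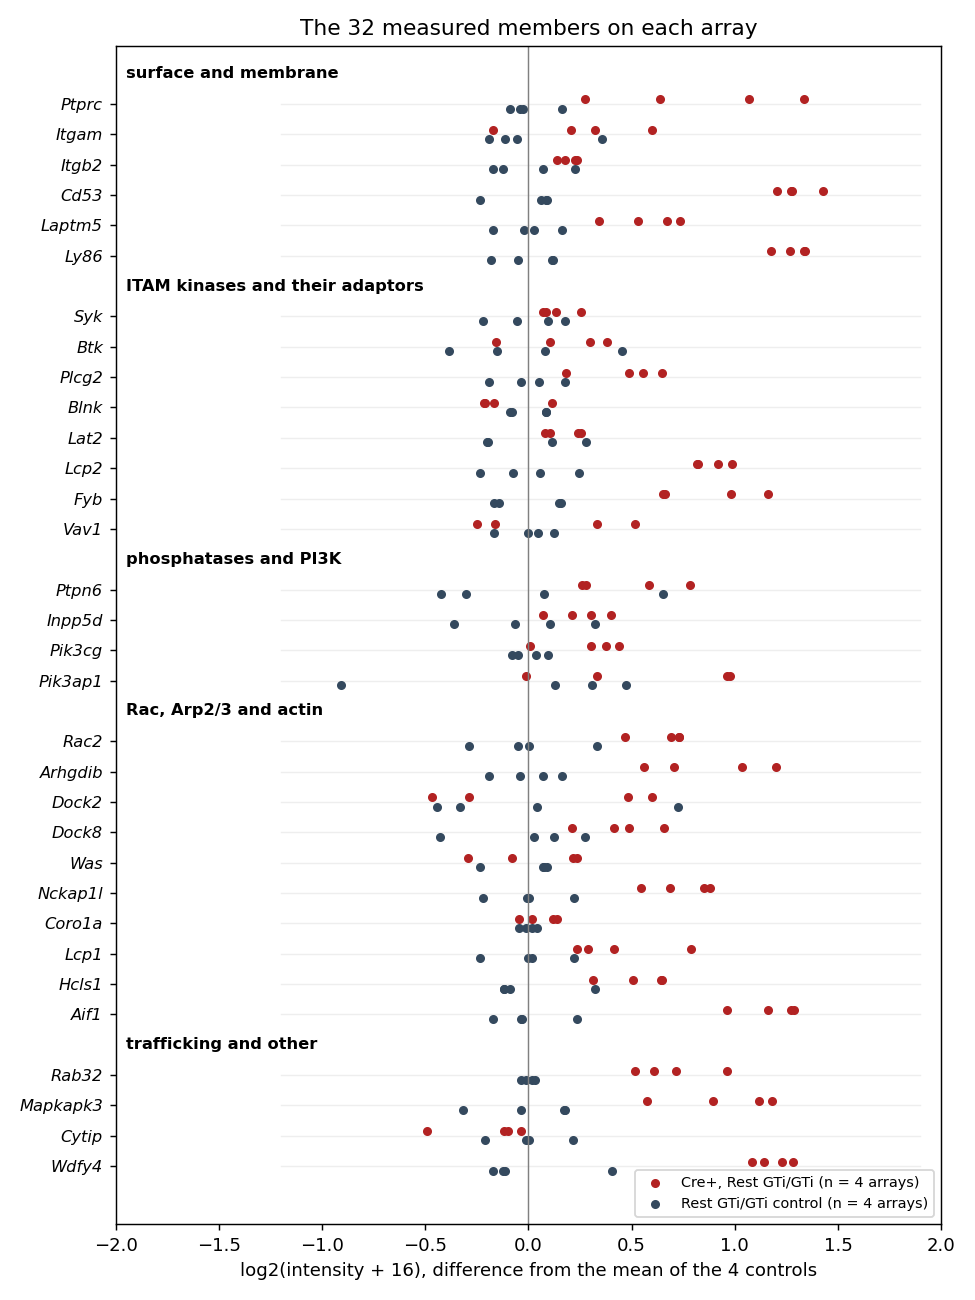
Each of the 32 measured members on each array, as log2(intensity + 16) minus the mean of the 4 control arrays (x axis), grouped by role; red points are *Cre+, Rest GTi/GTi* arrays and dark points *Rest GTi/GTi* controls, 4 each. In 15 rows every red point lies right of every dark point, and in the other 17 the colours overlap.

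At the leukocyte surface, 4 of 6 members were separated. *Cd53*, a tetraspanin of blood cells, read 129.5, 137.1, 154.0 and 136.7 on Cre+ replicates 1 to 4 and 49.8, 51.2, 37.6 and 51.1 on control replicates 1 to 4. The mean was 139 ± 10.4 in Cre+ and 47.4 ± 6.56 in control brain (SD, n = 4 arrays each), a log2 fold change of 1.30 with a standard error of 0.10. The 4 Cre+ arrays lay close together, and the lowest of them was 2.53 times the brightest control. *Ly86*, also known as MD-1, is the secreted partner of the Toll-like receptor homologue RP105. It read 184.7, 209.6, 198.1 and 208.6 in Cre+ brain, against 62.5, 80.2, 80.5 and 70.0 in controls, with a log2 fold change of 1.28 (SE 0.09). For *Cd53* and *Ly86* the gap between genotypes was wide against the spread within either.

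*Ptprc* encodes CD45, the tyrosine phosphatase that marks nucleated blood cells. It read 97.9, 54.2, 78.9 and 38.6 on Cre+ replicates 1 to 4, against 27.9, 34.5, 26.4 and 28.3 on the controls (log2 fold change 0.83, SE 0.21). The groups did not overlap, but Cre+ replicate 4 lay just above control replicate 2 and the Cre+ arrays spread far more (SD 26.2) than the controls (SD 3.56). *Laptm5*, a lysosomal membrane protein of blood cells, read 137.1, 123.2, 144.0 and 105.8 in Cre+ and 69.5, 91.7, 82.1 and 78.8 in control brain (0.57, SE 0.11). The integrin pair that forms Mac-1 was not separated: *Itgam* stayed below 16 on all 8 arrays, at 0.6 to 12.3 in Cre+ and 0.4 to 7.9 in controls, and *Itgb2* read 14.7 to 16.9 in Cre+ and 8.8 to 16.6 in controls. Below about 16, the constant added before log2, small differences could not be read.

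**Figure D2:**
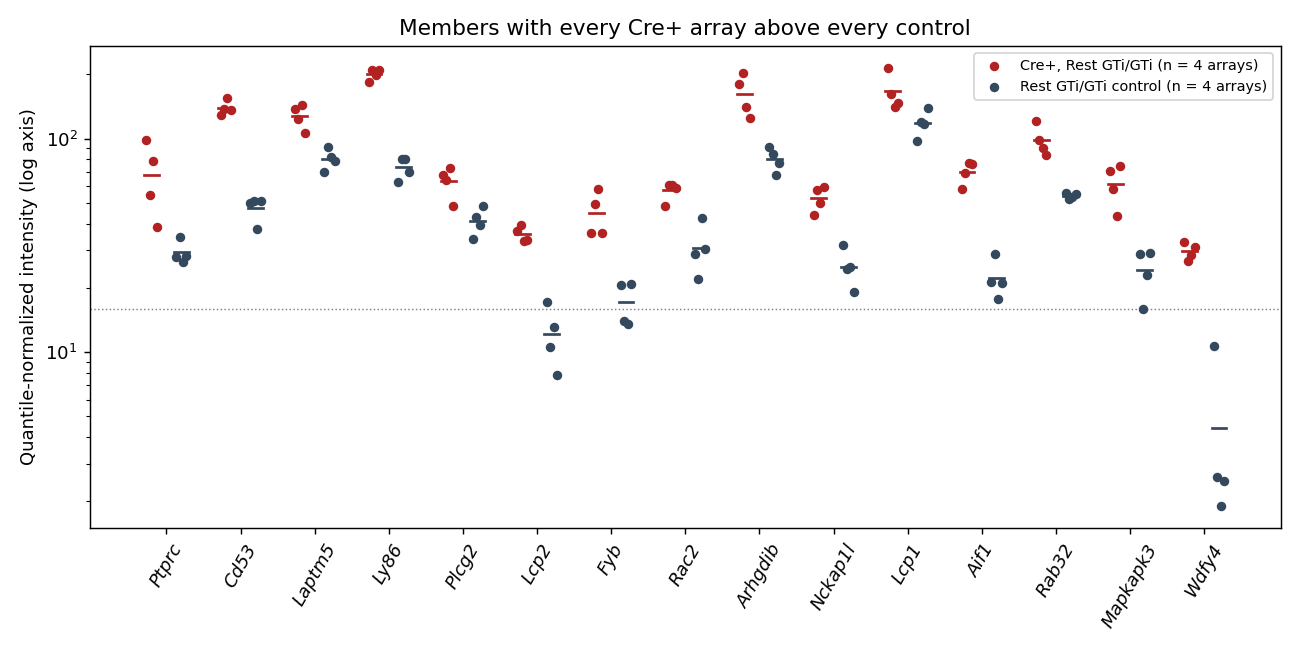
Quantile-normalized intensity on a log axis for the 15 members in which every Cre+ array exceeded every control; points are arrays (4 *Cre+, Rest GTi/GTi* in red, 4 controls in dark), short bars are group means and the dotted line is the added constant of 16. All 4 *Wdfy4* controls lie under the line, and the Cre+ arrays of *Ptprc* range from 38.6 to 97.9.

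Of the 8 measured ITAM kinases and adaptors, 3 were separated. *Lcp2* encodes SLP-76, the scaffold that ties the kinases to Vav and phospholipase C. It read 36.9, 39.4, 33.2 and 33.4 in Cre+ and 17.2, 10.6, 13.1 and 7.8 in control brain (0.89, SE 0.11). *Fyb* encodes ADAP, which binds SLP-76 and leads to integrins, and read 36.0, 49.4, 58.0 and 36.3 in Cre+ and 20.6, 14.0, 13.5 and 20.9 in control brain (0.87, SE 0.14). On their brightest probe sets both RNAs were higher on every Cre+ array than on any control, but a further *Lcp2* probe set overlapped (-0.23). Protein was not measured. On the brightest probe sets some controls of *Lcp2* and of *Fyb* lay under the constant of 16. With a constant of 1 the log2 fold changes were 1.53 for *Lcp2* and 1.33 for *Fyb*. *Plcg2*, the phospholipase C gamma of blood cells, read 67.5, 63.7, 73.0 and 48.5 in Cre+ brain, against 33.7, 42.8, 39.4 and 48.1 in controls (0.47, SE 0.12). Its lowest Cre+ array and its highest control nearly met.

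The kinases themselves overlapped between genotypes. *Syk* read 38.9 to 46.5 in Cre+ and 28.9 to 43.3 in control brain (0.14, SE 0.10), and its 3 further probe sets had log2 fold changes of -0.16, -0.22 and -0.26. *Btk* stayed under 16 on every array (3.9 to 12.9 in Cre+, 1.0 to 14.4 in controls). *Vav1*, the exchange factor that loads Rac, read 21.5, 23.9, 40.1 and 47.8 in Cre+ and 32.6, 28.5, 23.7 and 30.0 in controls, with 2 Cre+ arrays above and 2 within or below the control range. *Lat2*, a membrane adaptor, gave 0.17 (SE 0.12). *Blnk*, the B-cell adaptor, was 1 of 2 members with a negative value: it read 15.3, 22.0, 14.3 and 14.4 in Cre+ and 17.2, 17.0, 21.2 and 21.3 in control brain (-0.12, SE 0.10). Cre+ replicates 1, 3 and 4 lay under all controls and replicate 2 lay above them.

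None of the 4 measured phosphatase and PI3-kinase genes was separated on its brightest probe set, although all 4 log2 fold changes were above 0. *Ptpn6* encodes SHP-1, and its brightest probe set, whose name marks that it can match several transcripts, read 84.6, 53.9, 54.8 and 71.5 in Cre+ and 45.6, 75.9, 27.5 and 31.3 in control brain (0.48, SE 0.24). A further *Ptpn6* probe set without that limit did separate, at 37.3, 35.6, 37.4 and 36.4 in Cre+ and 14.2, 15.9, 6.9 and 2.8 in control brain (1.05, SE 0.16). The 2 readings of *Ptpn6* RNA thus differed in whether the genotypes overlapped. *Inpp5d* (SHIP-1) gave 0.25 (SE 0.15), *Pik3cg* (p110 gamma) 0.28 (SE 0.10) and *Pik3ap1* (the adaptor BCAP) 0.56 (SE 0.34). The wide error of *Pik3ap1* went with Cre+ arrays from 21.6 to 58.7 and controls from 4.2 to 36.7.

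Among the 10 measured Rac and actin genes, 5 were separated. *Aif1* encodes Iba1, the actin-bundling protein by which microglia are commonly stained. It read 58.0, 69.1, 76.8 and 75.8 in Cre+ and 21.2, 28.8, 17.8 and 21.1 in control brain, with a log2 fold change of 1.17 (SE 0.11). *Rac2*, the hematopoietic Rac, read 48.1, 60.8, 60.8 and 58.9 in Cre+ and 28.8, 22.0, 42.3 and 30.4 in controls (0.66, SE 0.13). *Arhgdib*, an inhibitor that binds Rac proteins in blood cells, read 179.8, 203.5, 139.8 and 124.8 in Cre+ and 91.0, 84.2, 67.6 and 76.8 in controls (0.88, SE 0.15). *Arhgdib* was brighter on Cre+ replicates 1 and 2 than on 3 and 4, and with replicates 3 and 4 alone its log2 fold change was 0.63.

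*Nckap1l* encodes HEM1, the blood-cell subunit of the WAVE complex, and read 43.7, 57.6, 49.8 and 59.3 in Cre+ and 31.7, 24.6, 25.0 and 19.1 in controls (0.74, SE 0.11). *Lcp1*, the actin bundler L-plastin, read 214.2, 161.7, 141.2 and 147.0 in Cre+ and 97.5, 119.0, 117.3 and 139.3 in controls (0.43, SE 0.14). The separation of *Lcp1* was narrow, since Cre+ replicate 3 lay just above control replicate 4, and its log2 fold change was 0.26 with Cre+ replicates 3 and 4 alone.

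The other 5 actin genes overlapped. *Coro1a*, a coronin that binds Arp2/3, read 554 to 631 in Cre+ and 554 to 589 in controls (0.06, SE 0.07), and its further probe sets gave 0.02 and -0.01. The ratio of its mean intensities was 1.04, against 1.85 for *Rac2* and 2.09 for *Nckap1l*. *Hcls1*, the cortactin relative of blood cells, was dim on every array (7.0 to 13.0 in Cre+, 1.1 to 7.2 in controls). Its log2 fold change was 0.52 (SE 0.13). The groups met only through control replicate 4 (7.2, against 1.1 to 1.4 on the other controls). For *Dock8* and *Dock2*, exchange factors that activate Cdc42 and Rac, the log2 fold changes were 0.44 (SE 0.16) and 0.08 (SE 0.32), and *Was*, the WASP protein that activates Arp2/3, gave 0.02 (SE 0.14).

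In the remaining group, 3 of 4 members were separated. *Wdfy4*, a BEACH-domain protein that dendritic cells need for cross-presentation, read 32.9, 26.7, 28.4 and 31.2 in Cre+ and 10.7, 2.6, 1.9 and 2.5 in control brain. All 4 controls were under the constant of 16, so the log2 fold change of 1.18 (SE 0.13) depends on it, and with a constant of 1 it was 2.75. *Mapkapk3*, a kinase that p38 activates, read 70.5, 58.1, 43.3 and 74.3 in Cre+ and 28.9, 16, 22.9 and 29.0 in controls (0.94, SE 0.16). *Rab32*, a GTPase of lysosome-related organelles, read 120.2, 98.7, 90.5 and 83.9 in Cre+ brain, against 55.5, 52.1, 53.3 and 54.8 in controls (0.70, SE 0.10). The *Rab32* controls spread by an SD of only 1.52, and the Cre+ arrays by 15.8. *Cytip*, which binds cytohesins, was the other member with a negative value, at 22.0, 33.2, 33.8 and 36.1 in Cre+ and 37.6, 30.1, 46.1 and 37.0 in controls (-0.19, SE 0.13), and the genotypes overlapped.

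Over the 17 members that overlapped, the median log2 fold change was 0.17 and the range ran from -0.19 to 0.56, against a median of 0.87 and a range of 0.43 to 1.30 over the 15 that were separated. The split uses the same contrast, so the gap between these medians is in large part fixed by it and nothing is read from that gap. In 3 of the 17 all 8 arrays were below 16 (*Itgam*, *Btk* and *Hcls1*).

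Further probe sets gave a second reading of 21 members. Of 32 further probe sets, 14 were below 16 on all 8 arrays, 6 had every Cre+ array above every control and 0 had the reverse. Over all genes, read by their brightest probe sets, 2.49% were separated upward and 2.15% downward. The share over all further probe sets is not given here. The choice of members bears on these counts too, so nothing is read from them. The 6 belonged to *Fyb* (1.23), *Laptm5* (0.96 and 0.53), *Mapkapk3* (1.36), *Nckap1l* (0.82) and *Ptpn6* (1.05). For *Fyb*, *Mapkapk3*, *Nckap1l* and *Ptpn6* the second reading was thus larger than the first. The same held for *Laptm5* on the probe set at 0.96, against 0.57 on its brightest, but not on the probe set at 0.53. Others went the opposite way: *Lcp2* gave -0.23 (SE 0.27) on a further probe set at 1.3 to 16.1 in Cre+ and 2.7 to 21.1 in control brain. *Cd53* gave -0.43 and *Wdfy4* -0.13 on further probe sets that were below 16 throughout. *Aif1* and *Ly86* have no further probe set. The separation of each of the 5 members called by limma therefore rests on a single probe set. *Laptm5* was the least settled, since 2 more probe sets gave -0.40 (SE 0.33) and -0.01 (SE 0.26), and the only *Laptm5* probe set that matches a single transcript was the one at -0.40. *Aif1* and *Inpp5d* are read only by probe sets that can match several transcripts, and *Ptprc* has besides such a probe set only one that was below 16 throughout (0.11).

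**Figure D3:**
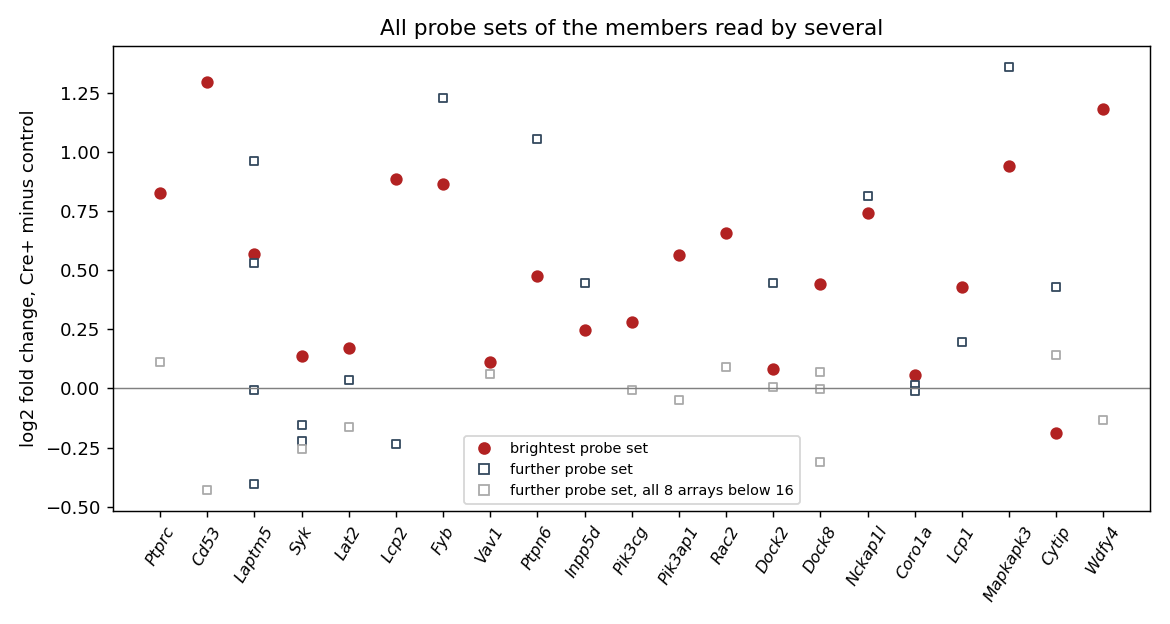
Log2 fold change (Cre+ minus control, intensity plus 16) of every probe set for the 21 members read by several; filled red circles are the brightest probe set, open squares the further ones, grey where all 8 arrays were below 16. *Fyb*, *Mapkapk3*, *Nckap1l* and *Laptm5* have further probe sets at 0.53 to 1.36, while *Syk* and *Coro1a* have none above 0.14.

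Relatives of the members from the same gene families, most of them widely expressed, were read on the same arrays for comparison. Of 32 measured relatives limma called 0 (4 had an unadjusted p under 0.05, and the methods' t-test called 0), 2 were separated upward and 0 downward, against 2.49% and 2.15% of all genes. The median log2 fold change was -0.02, and on the 4 Cre+ arrays the mean over the relatives lay 0.05, 0.08, 0.00 and -0.02 log2 units from the control mean. *Rac1* gave -0.08 (SE 0.10) and *Rac3* 0.01 (SE 0.09) beside 0.66 for *Rac2*. *Nckap1*, the widely expressed subunit of the WAVE complex, gave 0.01 (SE 0.06) beside 0.74 for *Nckap1l*. *Plcg1* gave -0.04 (SE 0.10) beside 0.47 for *Plcg2*.

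Values near 0 were also found for *Wdfy3* (-0.08, SE 0.08) beside *Wdfy4*, *Mapkapk2* (-0.04, SE 0.08) beside *Mapkapk3*, *Aif1l* (0.04, SE 0.08) beside *Aif1*, *Rab38* (0.09, SE 0.18) beside *Rab32* and *Ptpra* (0.04, SE 0.07) beside *Ptprc*. Beside *Lcp1*, the plastins *Pls1* and *Pls3* gave 0.06 (SE 0.10) and -0.07 (SE 0.17). The 4 relatives with the smallest p were *Laptm4b*, *Ly96*, *Itgav* and *Cd81*. *Laptm4b*, a lysosomal relative of *Laptm5*, read 1488, 1727, 1652 and 1759 in Cre+ brain, against 998, 1137, 1530 and 1090 in controls (0.49, SE 0.13, adjusted p = 0.466 by limma), and *Laptm4a* gave 0.10 (SE 0.08). *Ly96*, or MD-2, the partner of Toll-like receptor 4 and itself a gene of myeloid cells, read 25.2, 24.7, 19.5 and 20.1 in Cre+ and 16, 8.5, 16.2 and 15.5 in control brain (0.36, SE 0.11, adjusted p = 0.557 by limma). The tetraspanin *Cd81* read 1795 to 2089 in Cre+ and 1621 to 1728 in controls (0.19, SE 0.07, adjusted p = 0.674 by limma), and the integrin *Itgav* gave 0.29 (SE 0.11, adjusted p = 0.669 by limma). Members set beside these relatives are those chosen for the gap between genotypes, so a lower value of the relative is in large part fixed by that choice and nothing is read from it. Beside overlapping members some relatives had the larger value, namely *Itgav* (0.29) beside *Itgam* (0.24), *Dock1* (0.22) beside *Dock2* (0.08) and *Cyth1* (-0.04) beside *Cytip* (-0.19).

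**Figure D4:**
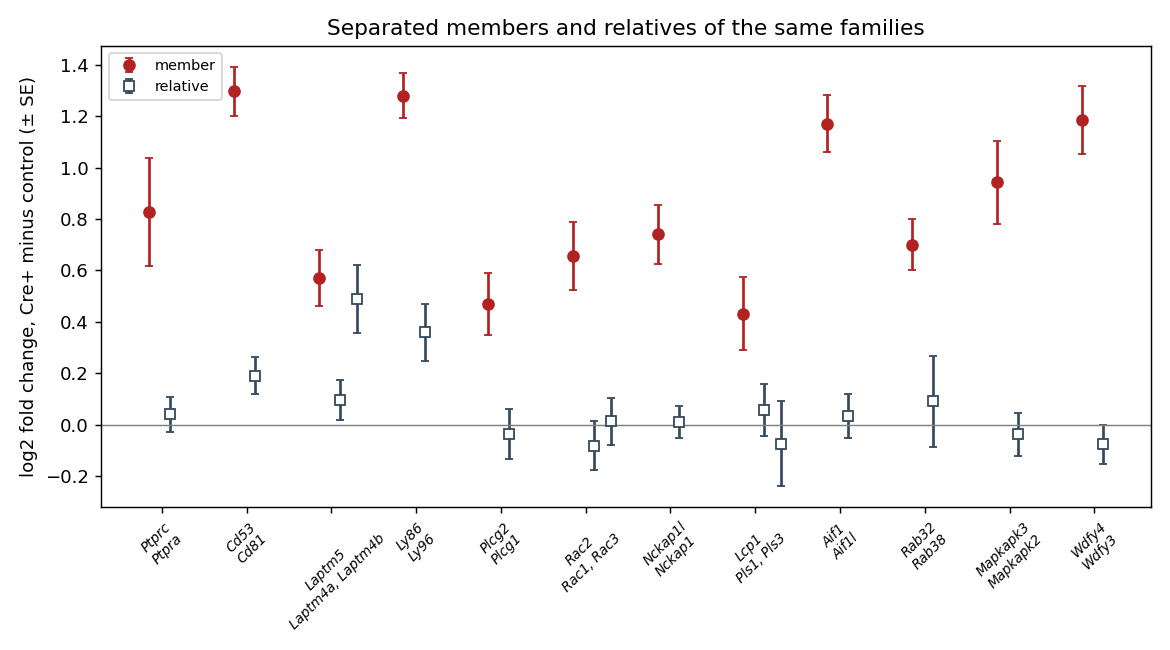
Log2 fold change (Cre+ minus control, ± SE, n = 4 arrays each) of 12 separated members (filled red circles) and of 15 measured relatives from the same families (open squares); the members are shown because they were separated, so a gap from the relatives is in large part fixed by that choice. Of the relatives, 13 lie within 0.2 of 0, and *Laptm4b* (0.49) and *Ly96* (0.36) lie higher.

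A list of other leukocyte genes from the same pathways, none of them members, was examined in the same fit. Of 78 listed, 70 were measured, and limma called 0 of them, or 1 (*Evi2a*) without control replicate 4 (16 had an unadjusted p under 0.05, of which 14 were higher, and the methods' t-test called 0). The genotypes were separated upward in 10 and downward in 2, beside 2.49% and 2.15% of all genes, and the median log2 fold change was 0.09. By role, 3 of 12 surface genes, 1 of 20 kinase and adaptor genes, 0 of 7 phosphatase and PI3-kinase genes and 6 of 31 Rac and actin genes were separated upward. The list thus held some genes with the direction seen in the members. Its genotypes overlapped in 58 of the 70 genes, beside 17348 of 18193 over all genes. Some members were picked because they read higher on these arrays, and the list leaves members out. Its counts therefore depend in part on that choice, and nothing is read from a lower share than in the members.

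The 4 with the smallest p all read higher in Cre+ brain without passing the limit. *Evi2a*, a membrane protein whose gene lies in an intron of *Nf1*, read 59.9, 46.0, 55.9 and 59.1 in Cre+ and 19.5, 20.2, 19.2 and 36.1 in control brain (0.86, SE 0.14, adjusted p = 0.113 by limma). *Plek*, or pleckstrin, a protein kinase C substrate of platelets and phagocytes, read 130.1, 115.3, 109.8 and 100.7 in Cre+ and 70.3, 60.5, 68.1 and 82.7 in controls (0.59, SE 0.10, adjusted p = 0.142 by limma). *Cd52*, a small surface glycoprotein of leukocytes, read 39.4, 46.8, 50.4 and 44.7 in Cre+ and 29.8, 29.8, 27.8 and 23.1 in controls (0.49, SE 0.09, adjusted p = 0.142 by limma). *Sash3*, a lymphocyte adaptor, gave 0.56 (SE 0.12, adjusted p = 0.302 by limma). The others separated upward, named after their values were seen, were *Fermt3* (kindlin-3, which activates integrins), *Capg* (an actin capper), *Myo1f*, *Cyth4*, *Cd84* and *Grap2*, an adaptor that binds SLP-76, with log2 fold changes of 0.45 to 0.62. Those separated downward were *Rasgrp1* (-0.41), an activator of Ras that neurons also express, and *Pik3cd* (-0.22). The *Pik3cd* probe set read 3869 to 4349 in Cre+ and 4457 to 5498 in control brain, brighter than the brightest probe set of any member. Which cells give that signal was not tested.

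Markers of the cell types that could carry the members were read on the same arrays. Of 15 microglia and macrophage markers, 8 were called higher by limma and 11 were separated upward, beside 0.214% and 2.49% of all genes. The 15 summed to 2199 to 2470 on Cre+ arrays and 837 to 953 on controls. The other 4 overlapped between genotypes. *Trem2*, *P2ry12* and *Spi1*, which encodes PU.1, gave -0.23 (SE 0.30), 0.16 (SE 0.12) and 0.06 (SE 0.14). *Mrc1* gave 1.63 (SE 0.55) and differed among the Cre+ arrays. It read 234.1 and 130.8 on Cre+ replicates 1 and 2, 27.6 and 33.9 on 3 and 4, and 5.7 to 29.2 on controls. For T cells, B cells, neutrophils and mast cells, limma called 0 of 29 measured markers (1 had an unadjusted p under 0.05, and the methods' t-test called 0). With 0.214% of all genes called higher and 0.0110% lower, a count of 0 does not set these markers apart. Log2 fold changes were above 0 in 8 of 8 neutrophil, 6 of 6 mast cell, 5 of 8 T-cell and 3 of 7 B-cell markers. Below 16 on all 8 arrays were 9: *Cd3d*, *Cd3g* and *Cd4*, *Cd79a* and *Ms4a1*, *S100a9* and *Elane*, and *Mcpt4* and *Ms4a2*. Another 5 were above 16 on all 8 arrays (*Pax5*, *Cd22*, *Igll1*, *Mmp9* and *Kit*), and the other markers of these lists crossed that level. The summed T-cell level was 69.7 to 101 on Cre+ arrays and 68.1 to 89.3 on controls, and the summed neutrophil level 166 to 183 and 132 to 164. The lowest Cre+ neutrophil sum (165.9) thus lay just above the highest control sum (163.7). By itself, 0 of the 8 neutrophil markers separated the genotypes. *Mmp9*, the brightest of them, gave 70.6 to 95.0 of the Cre+ sums and 62.6 to 78.7 of the control sums.

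Platelet and endothelial markers were higher on Cre+ replicates 1 and 2 than on 3 and 4. The 6 platelet markers summed to 987, 808, 649 and 616 on Cre+ replicates 1 to 4 and 495.5 to 588 on controls, with 1 of 6 separated, and the 8 endothelial markers to 1574, 1306, 970 and 1025 and to 860 to 957, also with 1 separated. With Cre+ replicates 3 and 4 alone the 5 members named by limma had log2 fold changes of 1.35 (*Cd53*), 1.30 (*Ly86*), 1.28 (*Aif1*), 1.18 (*Wdfy4*) and 0.82 (*Lcp2*), and against the male controls alone of 1.22, 1.39, 1.21, 1.04 and 0.88. Of these calls 0 held with Cre+ replicates 3 and 4 alone and 2 (*Cd53* and *Ly86*) against the male controls. Over all genes 0 and 7 were called in these settings. The part of microglia and macrophages in the members' values was not tested.

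**Figure D5:**
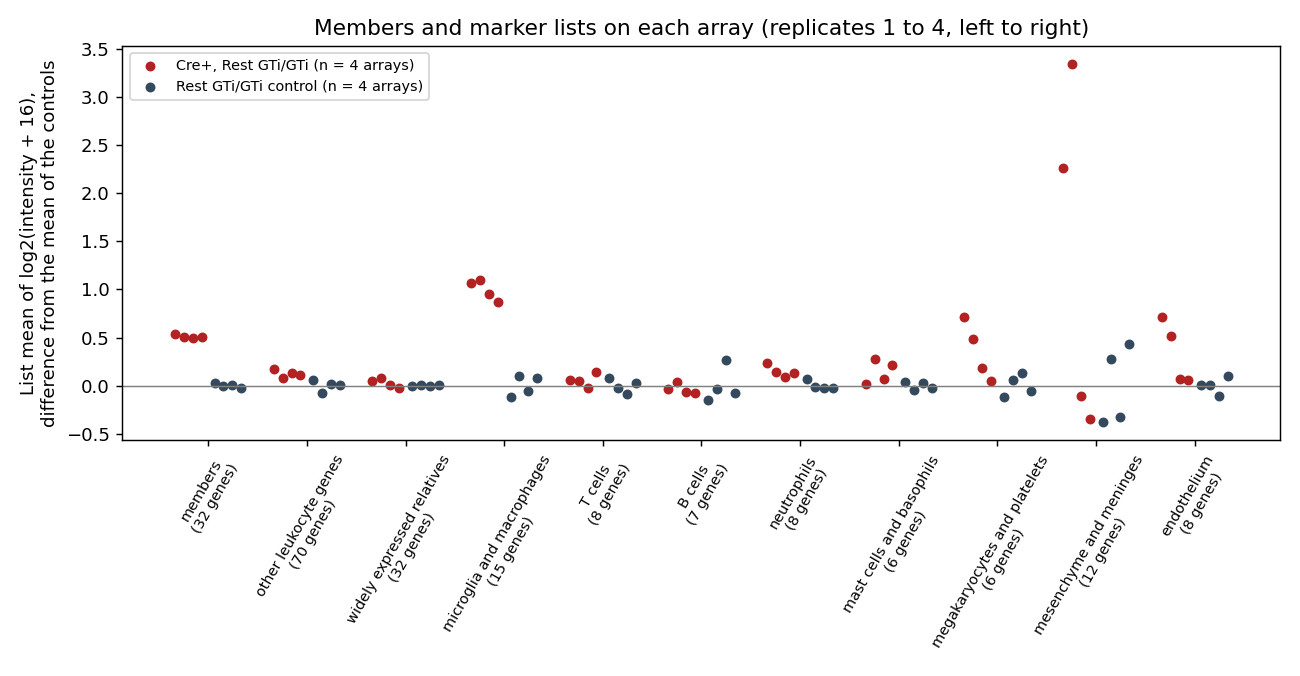
Mean over each gene list of log2(intensity + 16), as the difference from the mean of the controls, on each array; red points are *Cre+, Rest GTi/GTi* and dark points controls, replicates 1 to 4 from left to right, n = 4 each. The members lie 0.49 to 0.54 above the controls on all Cre+ arrays and the microglia and macrophage markers 0.87 to 1.10, while mesenchymal markers are high on Cre+ replicates 1 and 2 only.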

How the data were processed

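Brain RNA of E12.5 embryos was hybridised to 1-colour Affymetrix mouse arrays, 4 per genotype. The values are intensities per probe set on a linear scale, as deposited by the authors. The methods and the labels name RMA (no version given), but the deposited arrays differ in distribution, with medians of 40.9 to 68, which RMA output does not, and the step that made them is not given in the sources used here. The 64 Affymetrix controls were left out. The other 45037 probe sets were quantile normalized, 16 was added, and log2 values were fitted with limma 3.58.1 (lmFit, eBayes) in R 4.3.3, adjusted by Benjamini-Hochberg over all of them and called at 0.05. A fold change is on the scale of intensity plus 16 and understates changes of dim probe sets, and 30.6% of the probe sets had a mean below 16. No detection calls came with the values, and the number of arrays limits precision. By the platform annotation 34945 probe sets name 1 gene, 932 name more than 1 and 9160 are unnamed. The brightest probe set stands for each gene. The fit was tested on simulated data.

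The members, lists and tests were chosen with earlier results of these data known. Members were given array by array where every Cre+ array exceeded every control, where they passed 1.5 fold without such separation (0 did) or where the value was negative. Other leukocyte genes and relatives were named where called, where among the 4 with the smallest p, or, for relatives, beside such a member. *Vav1* and 2 probe sets of *Ptpn6* were also given array by array, and *Fermt3*, *Capg*, *Myo1f*, *Cyth4*, *Cd84*, *Grap2*, *Rasgrp1*, *Pik3cd*, *Laptm4a*, *Dock1* and *Cyth1* were also named, all after their values were seen. The methods' t-test, other scalings, constants of 1 and 50, a filter on dim probe sets, other choices of probe set, a replicate block, subsets of arrays and each array left out were tried as alternatives. Of the listed genes, 8 other leukocyte genes and 3 relatives have no probe set naming them alone and are not analysed here.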

Additional observations from a re-analysis of the deposited data

Results flagged for a closer look

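A test for a single far array within a genotype (Dixon, at 5%) was applied to 40 genes in 2 genotypes, which makes 80 groups of 4 arrays. It marked 8, where about 4 would be marked by chance. In Cre+ brain, *Rac2* was low on replicate 1 (48.1, against 58.9 to 60.8 on the other Cre+ arrays) and *Blnk* was high on replicate 2 (22.0, against 14.3 to 15.3). Among controls, *Cd53* was low on replicate 3 (37.6, against 49.8 to 51.2) and *Wdfy4* was high on replicate 1 (10.7, against 1.9 to 2.6). Control replicate 4 was marked for *Was* (10.3, against 16.5 to 16.9), *Hcls1* (7.2, against 1.1 to 1.4) and *Evi2a* (36.1, against 19.2 to 20.2). *Ly96* was low on control replicate 2 (8.5, against 15.5 to 16.2). No array was marked for more than 3 genes.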

How the results depend on the processing

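The count of members called moved most. It was 5 with limma's trend and robust options, a common median or a constant of 50, 6 with the mean of a gene's probe sets (2 of them, *Aif1* and *Ly86*, shared with the 5), 4 of 30 without probe sets that can match several transcripts, 3 with a constant of 1 or with the filter on dim probe sets (which keeps 7 members), 2 with the methods' t-test, against the male controls alone or with *Eif2s3y* as a covariate, and 0 with unequal variances in that test, with no scaling, or with Cre+ replicates 3 and 4 alone. Leaving out 1 array gave 3 to 5: without control replicate 1 the count stayed at 5, and without any other single array it was 3, namely *Aif1*, *Cd53* and *Ly86*. The replicate numbers did not pair the arrays (residual correlations of -0.13 to 0.007 within a number, and 0 of 8 arrays correlated best with their own number), and with a replicate block 0 members and 0 genes were called.

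The number of separated members was 6 of 7 with the filter, 15 to 17 with 1 array left out and 11 with no scaling. Over all genes the 453 separated upward became 281 with the filter, 647 to 822 with 1 array left out and 205 with no scaling. Separation is easier to reach with fewer arrays. The members' median log2 fold change, 0.47, was 0.75 and 0.31 with constants of 1 and 50, 0.70 with the filter, 0.55 with no scaling, 0.33 with the mean of probe sets, 0.44 without the less specific ones, 0.53 against male controls or with *Eif2s3y*, and 0.41 to 0.51 with 1 array left out. The other leukocyte genes' median was 0.16 with no scaling, 0.030 with the filter and 0.07 to 0.11 with 1 array left out, and 1 of them, *Evi2a*, was called without control replicate 4. The relatives' median was -0.081 with a common median, 0.035 with no scaling, -0.056 with the mean of probe sets, 0.016 against male controls, 0.015 with *Eif2s3y*, and -0.023 to 0.017 with 1 array left out. The 41 genes called overall became 14 with *Eif2s3y* or the methods' t-test, 0 with unequal variances or Cre+ replicates 3 and 4 alone, 2 with no scaling, 26 with a constant of 1, 7 against male controls and 21 to 31 with 1 array left out, where Cre+ replicates 2 and 3 and each control moved it most (21 to 27). Members other than those called changed sign in places: *Laptm5* gave -0.40 without less specific probe sets, *Syk* -0.12 and *Cytip* 0.13 with the mean of probe sets, *Btk* -0.11 against male controls, and *Was*, *Dock2* and *Vav1* crossed 0 when 1 array was left out. The cause of these changes was not tested.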
